A study of Mus musculus with 52 samples.

Results

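Spermatogonia are the mitotic germ cells at the base of the seminiferous tubule, and 10 genes used as their markers were followed in testes lacking the long noncoding RNA Tug1. The genes were Gfra1, Zbtb16, Nanos2, Nanos3, Id4, Sall4, Uchl1, Dazl, Kit and Sohlh1, taken by name from the table of testes RNA. All 10 were among the 34865 genes of that table, and 9 of the 10 had a mean of at least 1 TPM in a testes group, as did 22669 genes in all. TPM is the share of all transcripts that a gene takes up, corrected for its length, so levels of different genes can be set side by side.

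The undifferentiated spermatogonia include the stem cells. They are held in that state by GDNF, a growth factor from Sertoli and peritubular cells that acts through the co-receptor Gfra1 and the kinase Ret, and by nuclear and RNA-binding factors such as Zbtb16 and Nanos2. Retinoic acid then moves them to the differentiating state, in which the receptor Kit and the factor Sohlh1 are used, and from there they enter meiosis.

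Testes came from 3 groups of male mice. Wild-type testes (n = 4) are labelled C57BL/6J/129S6 (C57BL/6J, no Neo). Tug1-/- testes (n = 4) carry the allele Tug1_tm1.1Vlcg on both chromosomes, in which lacZ takes the place of the gene body and the promoter and first exon remain, and they are labelled C57BL/6J/129S6 (C57BL/6J, Neo, LacZ). Rescue testes (n = 3) have that same allele and background label, and also tg(Tug1) and CAGs-rtTA3. The transgene is a Tug1 isoform without the 5′ region behind a tet-responsive element, inserted at random in 2 founders, and the ubiquitous CAG promoter drives its activator. Doxycycline food is described for the rescue matings from conception on, so the transgene and the diet cannot be told apart, and within the testes labels Neo goes with genotype. The study's methods describe a colony bred from mice that had lost the neomycin gene, so whether the mice labelled Neo carried it is not clear from the sources used here. The codes in the testes labels fall into 2 number blocks, with 3 and 1 wild-type, 3 and 1 Tug1-/- and 1 and 2 rescue samples. In the other tissues (eyes, heart, liver, spleen, prostate and mouse embryonic fibroblasts, MEFs), labelled N3-C57BL/6J with no Neo, each genotype had 3 samples, except Tug1-/- prostate with 2. The tissues are described as adult and the MEFs as derived from embryos, the age of the mice behind the testes means is not given in the sources used here, and testes of 6 F1 hybrid mice were not analysed here.

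The tables hold the authors' mean of each group and no value of a single sample. No SD, interval, test or overlap between samples could therefore be computed, depth per sample is unknown, and every ratio below is a description of means with no replicate check. Ratios are log2 of (mean TPM + 0.1), which understates the ratio of low genes. They are read against the same ratio of all 22669 genes, and a gene is counted as past the fold when the ratio is at least 1.5-fold. Tug1 itself had the authors' means of 40.1 TPM (wild type), 0.885 TPM (Tug1-/-) and 1.60 TPM (rescue), so rescue held 4.0% of the wild-type level. Whole testes were sequenced, and fewer cells of a type cannot be told apart from less RNA per cell.

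Gfra1 was the member with the largest ratio. The 3 means were 11.1 TPM for wild-type, 3.84 TPM for Tug1-/- and 4.0 TPM for rescue testes. The Tug1-/- mean was 2.85-fold lower (log2 ratio -1.51), the rescue mean stayed 0.06 from the Tug1-/- mean on the log2 scale, and it was -1.45 against wild type. The other 9 members had Tug1-/- over wild-type log2 ratios of -0.10 to 0.21. In the order of wild-type levels Gfra1 held the fourth place, above Kit and Sohlh1, and in both other groups it held the sixth place, below them.

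**Figure D1:**
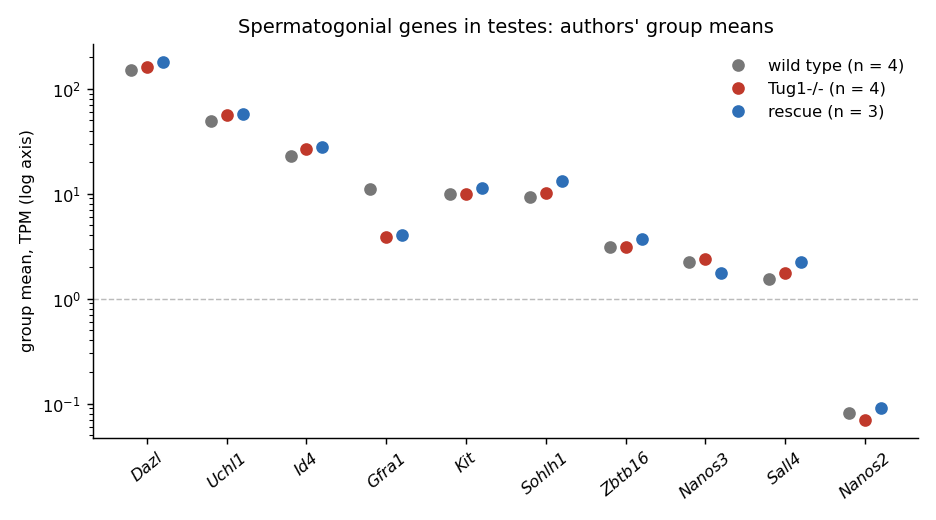
The authors' group means of the 10 spermatogonial genes in wild-type, Tug1-/- and rescue testes, in TPM on a log axis, with 1 point per group and the dashed line at 1 TPM. The 3 points of a gene lie close together except for Gfra1, at 11.1, 3.84 and 4.0 TPM, and Nanos2 lies under 0.1 TPM in every group.

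Over the 10 members, 1 was past the fold for Tug1-/- against wild type. That was Gfra1 on the lower side, where 3.55% of all genes lay, and no member was past it on the higher side, where 2.87% lay. Of the 10, 7 had the higher mean in Tug1-/- testes, beside 61.6% of all genes, and the median log2 ratio of the members was 0.10, beside 0.03 for all genes. For rescue against Tug1-/- no member was past the fold on either side, where 1.49% of all genes were higher and 3.59% lower. In that comparison 9 of 10 had the higher mean in rescue, beside 52.0% of all genes, with a median of 0.16 beside 0.01. For rescue against wild type, Gfra1 was again the 1 member past the fold, lower as 5.2% of all genes were, and no member was among the 2.82% that were higher. Of the 10 members, 8 had the higher mean in rescue than in wild type, beside 59.7% of all genes, and the median was 0.24 beside 0.04. The 3 ratios share their groups and are not independent. Of the members, 6 had means in the order wild type, Tug1-/-, rescue from low to high, as did 30.2% of all genes, and 8 were highest in rescue, as were 42.9% of all genes. The shares of all genes cover those of at least 1 TPM, and these counts of members include Nanos2, which is under it. Without Nanos2 the counts of higher means were 7 of 9 (Tug1-/- over wild type), 8 of 9 (rescue over Tug1-/-) and 7 of 9 (rescue over wild type), with medians of 0.11, 0.16 and 0.26, and 7 of 9 were highest in rescue.

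**Figure D2:**
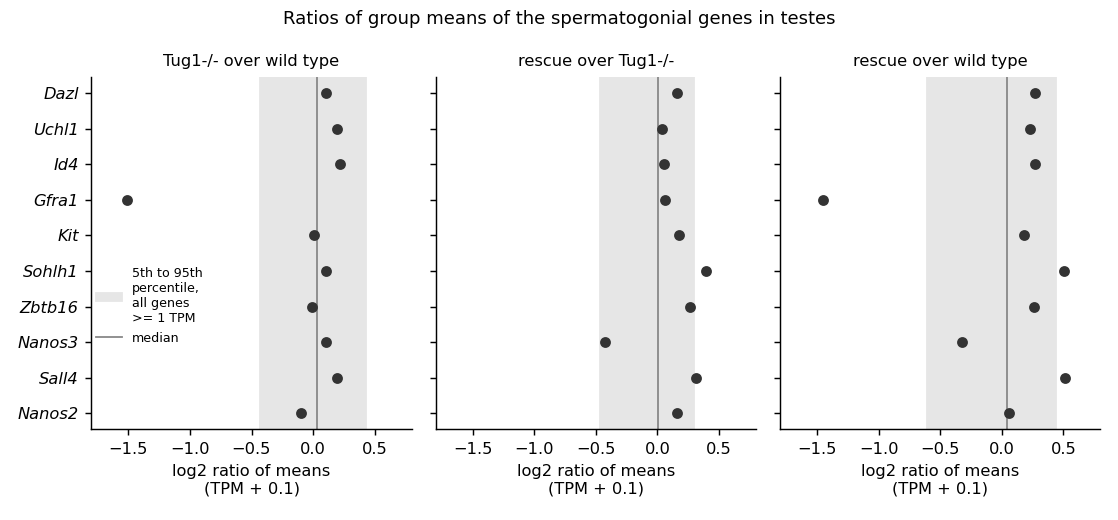
Log2 ratio of group means (TPM + 0.1) for each spermatogonial gene (rows) in 3 comparisons of testes (panels), with the range from the 5th to the 95th percentile of all genes of at least 1 TPM in grey and their median as a line. Gfra1 lies outside the grey range in both panels over wild type, at -1.51 and -1.45, and Sohlh1 and Sall4 lie above it in both rescue panels.

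The receptors were Gfra1 and Kit. Gfra1 (ENSMUSG00000025089.15) lies on mm10 chr19:58235604-58455909, minus strand. Its ratio of Tug1-/- over wild type stood at the 1.16 percentile of all genes, with 263 genes lower. The antisense gene Gm16277 overlaps it and had means of 0.215, 0.275 and 0.316 TPM in wild-type, Tug1-/- and rescue testes. Whether the counting used strand is not stated, and the part of antisense reads in the Gfra1 means was not tested. Kit (ENSMUSG00000005672.12, chr5:75574916-75656722, plus strand), the receptor for Kit ligand that marks differentiating spermatogonia and is also made by Leydig cells, had 9.91, 9.95 and 11.2 TPM in the same order. The Gfra1 mean was thus lower in both groups that lack the Tug1 locus. The Kit mean differed by 0.18 or less on the log2 scale in every comparison. It also covers Leydig cells and a truncated transcript of spermatids, so it is not a measure of differentiating spermatogonia alone.

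The nuclear factors of undifferentiated spermatogonia were near their wild-type means in Tug1-/- testes. Zbtb16 (PLZF, a zinc finger repressor needed for stem cell upkeep, ENSMUSG00000066687.5, chr9:48654297-48836222, minus strand) had 3.10 TPM in wild-type, 3.08 TPM in Tug1-/- and 3.72 TPM in rescue testes. Id4 (an inhibitor of bHLH factors that marks stem cells and is also made by Sertoli cells, ENSMUSG00000021379.2, chr13:48261228-48266026, plus strand) had 23.0, 26.7 and 27.7 TPM. Sall4 (a zinc finger factor of stem cells and progenitors, ENSMUSG00000027547.17, chr2:168748332-168767943, minus strand) had 1.53, 1.76 and 2.22 TPM. The Sall4 log2 ratio of rescue over Tug1-/-, 0.31, lay above that of 95.5% of all genes, and its log2 ratio of rescue over wild type was 0.51.

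The Nanos proteins repress messenger RNAs in germ cells. Nanos2 (ENSMUSG00000051965.8, chr7:18987400-18988962, plus strand), which keeps stem cells undifferentiated, was the 1 member below 1 TPM, with 0.0821, 0.0701 and 0.0899 TPM in wild-type, Tug1-/- and rescue testes. A difference between groups was not detectable at that level. Nanos3 (ENSMUSG00000056155.6, chr8:84173731-84185217, minus strand), of progenitors and early differentiating cells, had 2.23, 2.40 and 1.76 TPM. It was the 1 member with a lower mean in rescue than in Tug1-/- testes, with a log2 ratio of -0.43 at the 5.59 percentile of all genes. The miRNA gene Mir181d overlaps Nanos3 on the same strand and had 0.467, 1.02 and 0.454 TPM, so it too was lower in rescue than in Tug1-/- testes. How reads in the overlap were assigned is not given in the sources used here.

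Sohlh1, Dazl and Uchl1 complete the list. Sohlh1 (a bHLH factor that drives spermatogonial differentiation, ENSMUSG00000059625.6, chr2:25842995-25847248, minus strand) had 9.39 TPM in wild-type, 10.1 TPM in Tug1-/- and 13.4 TPM in rescue testes. Its log2 ratio of rescue over Tug1-/-, 0.40, was the largest positive one of the members and lay above 97.0% of all genes. Dazl (an RNA-binding protein of spermatogonia and spermatocytes, ENSMUSG00000010592.8, chr17:50279394-50293599, minus strand) was the most abundant member, with 150.0, 162 and 180.3 TPM. Uchl1 (a ubiquitin hydrolase of spermatogonia and neurons, ENSMUSG00000029223.12, chr5:66676091-66687234, plus strand) had 49.0, 56.1 and 57.6 TPM. These 3 genes had the same order of groups, with rescue highest, and none of their ratios reached 1.5-fold. Antisense genes overlap Uchl1 (Uchl1os) and Id4 (A330033J07Rik and AC123857.1), each with a mean of at most 0.211 TPM.

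Other genes of the GDNF pathway and its niche were read for the same groups, 9 of 12 of them at 1 TPM or more. For Tug1-/- against wild type 1 was past the fold, on the lower side as 3.55% of all genes were. It was Etv5, a transcription factor induced by GDNF, with 23.7 TPM in wild-type, 15.3 TPM in Tug1-/- and 16.0 TPM in rescue testes. Its log2 ratios were -0.63 for Tug1-/- over wild type and 0.07 for rescue over Tug1-/-. The ligand Gdnf had 1.21, 1.32 and 1.19 TPM, and the kinase Ret had 0.810, 0.767 and 0.856 TPM, under the filter. Of the 12 genes, 7 had the higher mean in Tug1-/- than in wild type. Of the 9 at 1 TPM or more, 7 did, beside 61.6% of all genes at that level. The largest positive ratios among those at 1 TPM or more were those of the growth factor Csf1, with 3.01, 4.50 and 4.26 TPM, and the chemokine receptor Cxcr4, with 4.12, 6.08 and 5.92 TPM, both short of the fold. The GDNF targets Bcl6b and Lhx1 had 3.34, 3.62 and 3.42 TPM and 2.18, 2.0 and 2.36 TPM. Under the filter were also Eomes, a factor of Gfra1-positive cells, with 0.929, 0.138 and 0.257 TPM, and Pou3f1, with 0.904, 0.520 and 0.499 TPM. For rescue against Tug1-/- 1 gene was past the fold, on the lower side as 3.59% of all genes were, the chemokine Cxcl12, with 6.35, 8.31 and 4.09 TPM. The medians of the 12 genes were 0.06 for Tug1-/- over wild type and -0.04 for rescue over Tug1-/-, and those of the 9 at 1 TPM or more were 0.11 and -0.08.

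Of 16 further genes of undifferentiated spermatogonia, 11 had 1 TPM or more. For Tug1-/- against wild type 1 of them was past the fold on the higher side, beside 2.87% of all genes, and 2 on the lower side, beside 3.55%, and the median of the 16 was 0.12. Cdh1, the cadherin of undifferentiated spermatogonia and of epithelia in general, had 7.17 TPM in wild-type, 2.40 TPM in Tug1-/- and 0.671 TPM in rescue testes. Cd9, a tetraspanin of stem cells and of many other cell types, had 14.6, 7.19 and 6.42 TPM. Tspan8, another tetraspanin, had 5.52, 8.85 and 7.16 TPM. The surface genes Itga6 and Thy1 of the list were not past the fold, with log2 ratios of 0.48 and 0.16. The RNA-binding protein Lin28a had 2.93, 2.99 and 3.60 TPM, and the transcription cofactor Taf4b had 16.5, 19.0 and 20.5 TPM. For rescue against Tug1-/- 1 gene was past the fold, also on the side of the 3.59%, Cdh1 with a log2 ratio of -1.70, and the median was -0.16.

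**Figure D3:**
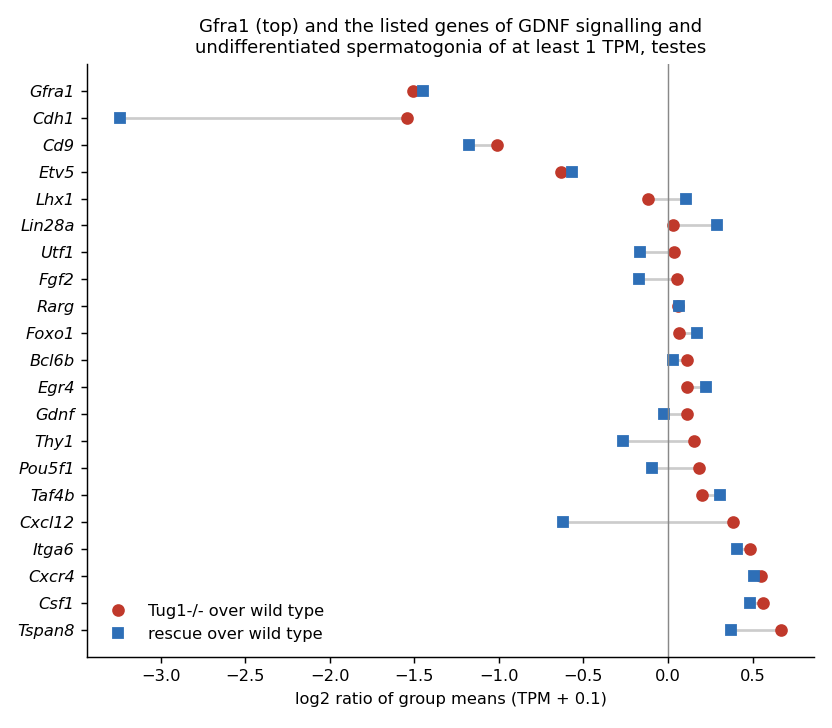
Log2 ratios of group means (TPM + 0.1) in testes for Gfra1 and for the 20 listed genes of the GDNF pathway and of undifferentiated spermatogonia that reached 1 TPM, as Tug1-/- over wild type (circles) and rescue over wild type (squares). Gfra1, Cdh1, Cd9 and Etv5 lie left of 0 in both ratios, and Tspan8 lies farthest right for Tug1-/-, at 0.67.

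RNA of epididymal type differed between the same group means as Gfra1. A list of 15 epididymis genes, written after the tables were seen, summed to 6241 TPM in wild-type, 946 TPM in Tug1-/- and 18.4 TPM in rescue testes, which is 0.625% of the wild-type total. The glutathione peroxidase Gpx5 had 1921, 0.981 and 0.297 TPM, the lipocalin Lcn8 had 799, 0.244 and 0.160 TPM, and the secreted protein Crisp1 had 427, 760.5 and 0.348 TPM. In wild type none of the 15 was under 1 TPM, against 8 in Tug1-/- and 13 in rescue testes, and 14 of 15 were highest in wild type. Crisp1 made up most of the Tug1-/- sum, while Gpx5, Lcn8, Lcn5 and Lcn9 were under 1 TPM in both Tug1-/- and rescue testes. Which wild-type libraries carry this RNA cannot be seen in group means, and its part in the lower means of Gfra1, Etv5, Cd9 and Cdh1 was not tested. A list of 7 skeletal muscle genes, also written afterwards, summed to 2.31, 47.1 and 2.16 TPM, with Myl1 at 0.713, 4.43 and 0.556 TPM and Ckm at 0.700, 3.37 and 0.772 TPM.

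A list for differentiating spermatogonia held 11 genes chosen for that stage and Kitl, the ligand of Kit made by Sertoli cells. The part of other cells in their whole-testis means was not tested. All 12 genes had 1 TPM or more throughout. The mean was higher in Tug1-/- than in wild type for 11 of them, beside 61.6% of all genes, and higher in rescue than in wild type for 12, beside 59.7%. Between rescue and Tug1-/- 10 had the higher mean in rescue, beside 52.0%. Without Kitl, which had 13.7, 16.3 and 14.5 TPM, these counts were 10, 11 and 10 of 11. The medians were 0.14 for Tug1-/- over wild type, 0.15 for rescue over Tug1-/- and 0.28 for rescue over wild type, beside 0.03, 0.01 and 0.04 for all genes. Dmrtb1, a factor that governs the entry into meiosis, had 703 TPM in wild-type, 703 TPM in Tug1-/- and 751 TPM in rescue testes. The germ cell surface protein Tex101 had 227, 240.5 and 282 TPM, and Sohlh2, the partner of Sohlh1, had 13.8, 14.9 and 16.9 TPM. For Tug1-/- against wild type 1 gene was past the fold on the higher side, as 2.87% of all genes were, the cyclin Ccnd2, with 2.86, 6.90 and 5.72 TPM, which was not past it between rescue and Tug1-/-.

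The markers of the other testis cells give the setting of these means. Sertoli cell genes, led by Aard (174, 253 and 266 TPM in wild-type, Tug1-/- and rescue testes) and Cldn11 (94.2, 138 and 148 TPM), summed to 372 TPM in wild-type, 520 TPM in Tug1-/- and 567 TPM in rescue testes, with 10 of 10 higher in Tug1-/- than in wild type, beside 61.6% of all genes, and a median log2 ratio of 0.40. Leydig cell genes, led by the steroid enzymes Cyp17a1 (235, 341 and 315 TPM) and Hsd3b6 (136, 147 and 67.1 TPM), summed to 626, 899 and 716 TPM, with 7 of 7 higher in Tug1-/- than in wild type, 3 of them past the fold beside 2.87% of all genes, and a median of 0.57. Elongating spermatid genes, led by the protamines Prm1 (14339, 13386 and 13033 TPM) and Prm2 (12768, 11663 and 11685 TPM), summed to 59711, 56311 and 55011 TPM, with 1 of 8 higher in Tug1-/- and a median of -0.11. Spermatocyte genes, led by Hspa2 (1161, 1251 and 1299.8 TPM) and Piwil1 (311, 330 and 366 TPM), had a median of 0.11. Round spermatid genes, led by Spaca1 (299, 317 and 297 TPM) and Tssk1 (251, 253 and 251 TPM), had a median of 0.04. General germ cell genes, led by Mael (1646, 1716 and 1694 TPM) and Ddx4 (617, 633 and 633 TPM), had a median of 0.06. Medians were 0.47 for peritubular myoid genes, led by Acta2 (76.7, 105 and 90.8 TPM) and Myh11 (21.7, 28.1 and 22.3 TPM), and 0.32 for macrophage genes, led by C1qb (22.2, 27.2 and 33.5 TPM) and Mrc1 (20.8, 27.4 and 28.7 TPM). Endothelial genes, led by Cdh5 (5.28, 6.28 and 6.15 TPM) and Tek (2.78, 2.82 and 2.85 TPM), had a median of 0.13. The median of the spermatogonial members, 0.10, thus lay near that of the spermatocyte genes and below that of the Sertoli genes. For rescue over Tug1-/- the members' median was 0.16, with 52.0% of all genes higher. Beside it stood 0.17 for Sertoli genes (9 of 10 higher) and 0.15 for the list of differentiating spermatogonia (10 of 12). At 1 TPM or more, the further genes of undifferentiated spermatogonia had -0.16 (4 of 11) and the GDNF list had -0.08 (3 of 9). Spermatocyte genes had 0.03 (7 of 9), round spermatid genes -0.07 (0 of 6) and elongating spermatid genes -0.02 (3 of 8). Leydig genes had -0.12 (3 of 7), with 3 past the fold on the lower side, as 3.59% of all genes were. Peritubular myoid genes had -0.33 (0 of 5), with 1 past it on that side. General germ cell genes had 0.05 (4 of 5), macrophage genes 0.02 (3 of 6) and endothelial genes -0.05 (1 of 4). For rescue over wild type 5 of the 10 Sertoli genes were past the fold on the higher side, as 2.82% of all genes were, and their median was 0.56 beside 0.24 for the members. TPM are shares of a total, and the listed elongating spermatid genes took 5.97%, 5.63% and 5.50% of it in wild-type, Tug1-/- and rescue testes. With the mitochondrial genes and the 10 most abundant genes left out and the rest rescaled, the members' medians were 0.10 for Tug1-/- over wild type and 0.16 for rescue over Tug1-/-, the same to 2 decimals as with all genes.

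The members differ in how far they are limited to the testes. Over the wild-type means of 7 tissues of the series, in tables that were normalized separately, 4 members were highest in testes and 6 elsewhere. Dazl had 150.0 TPM in testes and 0.349 TPM in eyes, the next tissue, so that 99.5% of its summed level lay in testes, and Sohlh1 had 9.39 TPM in testes and 0.349 TPM in eyes, with 95.8%. Sall4 and Nanos3 were also highest in testes, with 63.8% and 50.0% of their summed levels. Gfra1 had its highest mean in liver with 65.1 TPM, Uchl1 in eyes with 216 TPM, Id4 in eyes with 42.5 TPM, Kit in spleen with 13.2 TPM and Zbtb16 in prostate with 17.7 TPM. Nanos2, counted among the 6, was highest in eyes with 0.544 TPM. It was under 1 TPM in every tissue of the series, so its place is not interpreted. The other 5 of these 6 genes mark spermatogonia within the testis and had their highest means outside it. In brain, from libraries outside the series and given as levels only, Uchl1 had 870.3 TPM, Id4 118 TPM, Gfra1 34.6 TPM and Dazl 5.57 TPM.

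**Figure D4:**
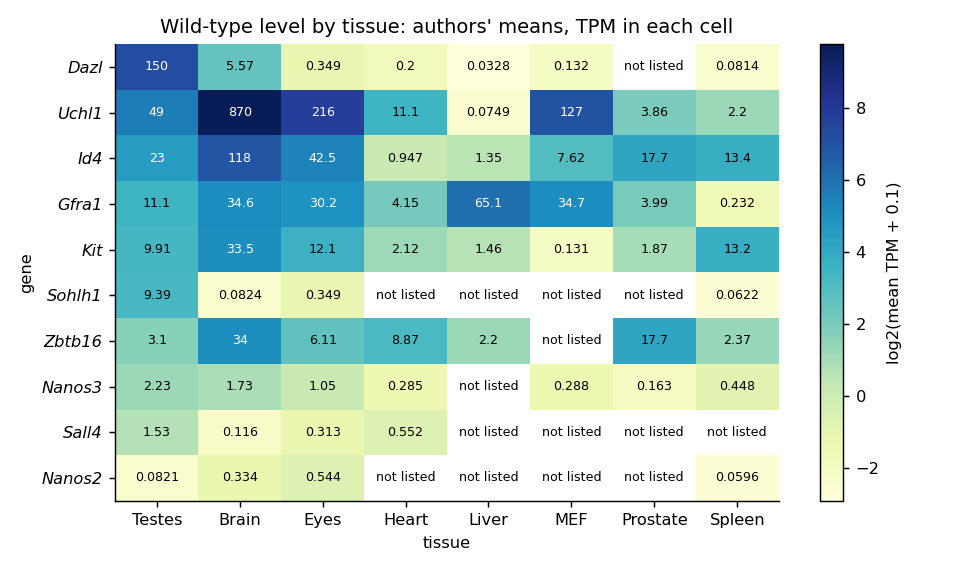
Wild-type means of the 10 spermatogonial genes (rows) in testes and 7 further tissues (columns), with the TPM value printed in each cell and log2(mean TPM + 0.1) as colour, across tables normalized separately. Dazl and Sohlh1 stand out in testes, and Uchl1, Id4, Gfra1, Kit and Zbtb16 reach 1 TPM or more in most tissues. Genes that a tissue's table does not hold are marked as not listed.

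Outside the testes, 26 pairs of a member and a tissue had 1 TPM or more, and 7 of them were past the fold on the higher side and 2 on the lower side in Tug1-/-. By tissue, the members past the fold were 2 of 6 in eyes (7.87% of all genes, either way), 1 of 4 in heart (4.56%), 2 of 4 in liver (6.02%), none of 3 in MEFs (7.73%), 2 of 5 in prostate (7.99%) and 2 of 4 in spleen (10.5%). Gfra1, at 1 TPM or more in 5 of the 6 tissues, was past the fold in none of them. In liver, where its level was highest, the means were 65.1 TPM (wild type) and 73.4 TPM (Tug1-/-), and in prostate it had 3.99 and 3.92 TPM. In MEFs it had 34.7 and 26.1 TPM, its most negative log2 ratio outside the testes at -0.41.

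Among the 6 tissues of the series, Zbtb16 accounted for 5 of the 7 higher pairs. In liver the means were 2.20 TPM (wild type) and 8.02 TPM (Tug1-/-), a log2 ratio of 1.82. In heart it was 8.87 and 27.5 TPM, a log2 ratio of 1.62, and both ratios lay above 99.8% of the genes of their tissue. Smaller ratios were seen in spleen (2.37 and 4.05 TPM, log2 ratio 0.75), eyes (6.11 and 9.94 TPM, 0.69) and prostate (17.7 and 26.9 TPM, 0.60). In brain, from libraries outside the series and set beside these as levels only, Zbtb16 had 34.0 TPM (wild type) and 23.6 TPM (Tug1-/-), so the order of the means was the opposite one there. Zbtb16 is not listed for MEFs, and in testes its means of 3.10 and 3.08 TPM gave a log2 ratio of -0.01. The median log2 ratio of all genes was -0.11 in eyes, 0.10 in heart and -0.11 in spleen. Relative to it, Zbtb16 stood at 0.80, 1.52 and 0.86, and with every tissue centred in this way Zbtb16 was past the fold in 4 tissues, prostate with its 2 Tug1-/- samples being lost at 0.57. The mean normalized read count behind these values was between 256 in spleen and 1892 in heart.

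Kit and Id4 had ratios of both signs. In eyes Kit had 12.1 TPM (wild type) and 7.48 TPM (Tug1-/-), a log2 ratio of -0.69, or -0.58 relative to the eye median, which is short of the fold. In prostate Kit had 1.87 and 2.97 TPM, a log2 ratio of 0.64. In spleen Id4 had 13.4 and 7.18 TPM, a log2 ratio of -0.89, or -0.78 relative to the spleen median, and 1.35 and 2.19 TPM in liver, a log2 ratio of 0.66. Dazl, Sohlh1, Sall4 and Nanos2 had under 1 TPM in each of the 6 tissues that lists them, and Nanos3 reached it in eyes only.

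**Figure D5:**
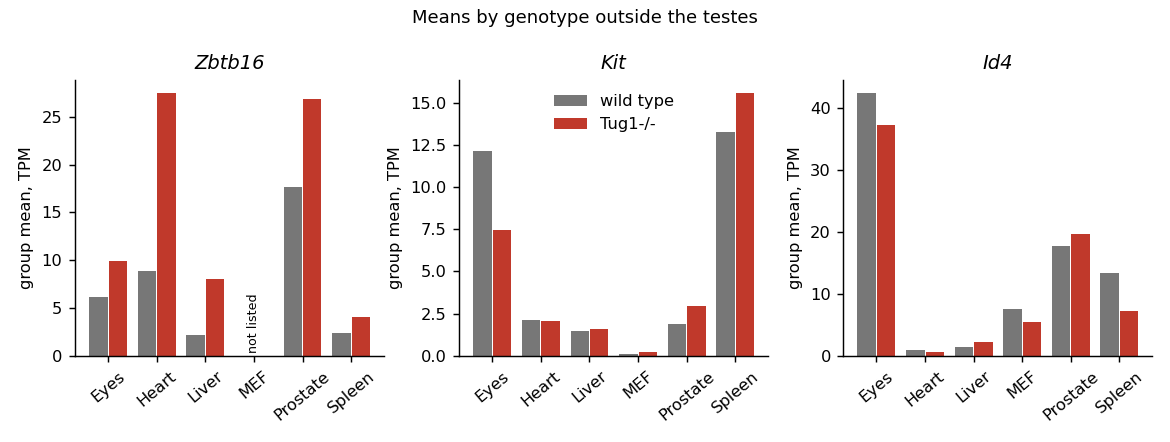
The authors' means in TPM (bars from 0, without error bars because the tables hold none) of Zbtb16, Kit and Id4 in wild type and Tug1-/- outside the testes. Each tissue plotted that lists Zbtb16 has the higher mean in Tug1-/-, with 8.87 and 27.5 TPM in heart, whereas Kit is lower in eyes and Id4 lower in spleen.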

How the data were processed

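RNA with poly(A) tails was sequenced as paired ends. The authors aligned reads with STAR to mm10, assigned uniquely mapped reads to GENCODE genes by featureCounts, dropped a gene when each replicate had under 3 reads, and computed TPM, which were deposited as group means. In the table of other tissues the deposited means are listed as a score, since 7 tissues are stacked in 1 column, and the authors' mean normalized read count is a signal that covers both genotypes. CASAVA 1.8.2 and DESeq2 also stand in the submitters' processing notes. The authors' own comparison columns (fold changes, statistics, p-values) were not used. Columns of unmatched samples numbered 0.

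Genes were taken by name with pandas 2.3.3, numpy 2.4.6 and Python 3.11.15, and no named gene is among the 30 repeated names. Ratios are log2 of group means plus 0.1 TPM, over genes of at least 1 TPM in a group, with a fold of 1.5. The code for ratios and counts was run on simulated means with planted changes. That checks the code only, and not the spread of samples or the values of low genes. No differential test was possible without single samples. The members, the lists and the rules were chosen with earlier results of these data known. All 10 members are named, along with Tug1, genes of the spermatogonial lists past the fold, and the 2 genes of highest wild-type mean in each list. Other pathway genes named were chosen after their values were seen.

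Alternatives were pseudocounts of 0.01 and 1 TPM, centring, rescaling without mitochondrial genes and the 10 most abundant genes, a lower fold (log2 of 0.32), a fold of 2, and no or a lower filter. A log2 value was taken as moved past 0.1, and a count or share past 1.5 times.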

Additional observations from a re-analysis of the deposited data

How the results depend on the processing

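No paired analysis was possible because the tables hold group means, and for the same reason no sample could be left out. Values of single members were recomputed under 5 of the 9 alternative settings (pseudocounts, centring, rescaling), in both testes ratios that involve Tug1-/-. Of these 100 values 5 moved by over 0.1 on the log2 scale. No ratio past the fold changed sign, and 2 values did in all, both of Kit in Tug1-/- over wild type, which went from 0.01 to -0.03 when centred and to just under 0 when rescaled without the epididymis and skeletal muscle lists. With a pseudocount of 1 TPM Gfra1 in Tug1-/- over wild type became -1.32. Nanos2 became -0.20 in that ratio with a pseudocount of 0.01 TPM, and 0.32 and 0.03 in rescue over Tug1-/- with 0.01 and 1 TPM. Nanos3 in rescue over Tug1-/- became -0.30 with 1 TPM. At the lower fold, a log2 ratio of 0.32, 2 members were past it for rescue over Tug1-/-, Sohlh1 and Nanos3, against 0 at 1.5. The share of all genes past the fold for Tug1-/- over wild type, 6.42%, became 3.64% with a pseudocount of 1 TPM, 14.7% at the lower fold, 2.85% at a fold of 2, 9.90% with no filter and 10.3% from 0.1 TPM. For rescue over Tug1-/- the share of 5.07% became 2.40%, 12.5%, 2.20%, 9.58% and 9.79% in the same order. The medians of the members and the count of members past the fold for Tug1-/- over wild type kept within the limits under each setting run. That rescaling was added after seeing the data. It shifts all genes of a ratio alike, so it does not bear on the part of epididymal RNA in Gfra1.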
